A study of Homo sapiens with 6 samples.

Results

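The genes described here are the replication-dependent histone genes, which make the bulk of the histones that package newly copied DNA. They were taken by name, as protein-coding genes of the histone clusters whose older symbols start with HIST1H, HIST2H, HIST3H or HIST4H. The rule found 71 genes among 58523 with a matched transcript: 6 for the linker histone H1, 17 for H2A, 18 for H2B, 15 for H3 and 15 for H4. The rule uses names alone. hMGL is a human enzyme engineered to degrade the amino acid methionine. The study grew A375, an established human melanoma cell line, in 6 independent cultures. It gave 3 of them (Treated, replicates 4 to 6) hMGL for 24 h, and left the other 3 (Control, replicates 1 to 3) untreated. Total RNA of each culture was sequenced on an Illumina instrument, and the labels do not say whether poly(A) RNA was selected or ribosomal RNA removed.

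Replication-dependent histone mRNAs are made mainly in S phase, when chromatin is duplicated. They have no introns as a rule, and their 3' end is not a poly(A) tail but a short stem-loop that SLBP binds and that the U7 small nuclear ribonucleoprotein helps to cut. Some of the same genes also give longer transcripts that run past the stem-loop or splice around it and end at a poly(A) signal, a form known from cells that have left the cycle.

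The libraries held 50760266 to 59954677 estimated counts, Treated libraries 50760266 to 53682075 and Control libraries 53441686 to 59954677. Of 22580 genes tested over the whole table, 34.9% were higher and 34.5% lower in Treated at an adjusted p below 0.05 (edgeR quasi-likelihood test, Benjamini-Hochberg over all genes), with a median log2 fold change of -0.02. RN7SL1, a small cytoplasmic RNA, took 18.5% to 22.1% of the TPM in Treated and 16.1% to 19.4% in Control libraries. Of the 9 melanocyte markers, SOX10 was high at 349.7 ± 6.77 CPM in Treated and 417 ± 31.4 CPM in Control (SD, n = 3 each), while the pigment genes PMEL, MLANA, TYR, TYRP1 and DCT averaged at most 2.05 CPM in Treated and 0.922 CPM in Control. In the melanocyte list 3 genes rose, 3 fell, 2 did not pass and TYR was too low to test. The 12 markers of other cell types summed to 12.8 to 13.5 CPM in Treated and 19.4 to 21.4 CPM in Control libraries, most of it KRT14. Of these 12 genes, KRT5 rose, KRT14 and COL1A1 fell, 3 did not pass, and the other 6 were too low to test.

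The stem-loop is shown first because it is the known 3' end of these mRNAs; the forms compared below were classed by length, and whether the short ones end at it was not tested. Each line gives 30 bases of an mRNA from the GENCODE 29 transcript of the gene, on the coding strand, 5' to 3', with the 16 bases that match the histone stem-loop consensus in capitals.
H2AC6: acccaaaGGCTCTTTTCAGAGCCcccctac
H2BC4: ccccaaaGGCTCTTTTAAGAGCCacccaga
H3C6: atccaaaGGCTCTTCTCAGAGCCaaccact
H4C8: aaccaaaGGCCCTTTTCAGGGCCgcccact
H4C14: tcccaaaGGCCCTTTTTAGGGCCgaccact
An exact match was found in 32 members, read from GENCODE 29 models that reach past the stop codon. Of the 67 short forms, only 31 have a model with at least 16 bases after the stop codon, so many members could not show a match. These matches took 6 different sequences. The stem-loop of H2AC6 was shared by 17 members of the H2A, H2B and H3 types, of which 8 rose, 8 fell and 1 did not pass. Beside these counts, 34.9% of all genes tested rose and 34.5% fell. H4 genes carried a stem of their own: 5 had the H4C8 sequence and 3 (H4C14, H4C15 and H4C9) the H4C14 sequence, and those 3 fell. The copies H4C14 and H4C15 are not separate cases, nor are H2AC18 with H2AC19 and H3C14 with H3C15 among the 17. Across transcripts of the short form the stem-loop began 23 to 68 bases after the stop codon.

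Replication-dependent histone genes took a somewhat smaller share of the counts in Treated libraries, but single genes moved far and in both directions. Summed over the 71 genes, the level was 10057, 9920 and 10434 CPM (estimated counts scaled to a common library size with TMM factors) in the Treated libraries and 12087, 11513 and 11944 CPM in the Control libraries, so the groups did not overlap, and the Treated to Control ratio of the means was 0.856. As a share of all estimated counts they took 0.959% to 1.00% in Treated and 1.08% to 1.11% in Control libraries. Of the 65 members with enough counts to test, 21 rose (32.3%, near the 34.9% of all genes) and 41 fell (63.1%, against 34.5% of all genes). The median log2 fold change of the tested members was -0.41. A total of 7 members rose and 19 fell by 2-fold or more, and the share of all genes at this cut was not counted. Among the 7 is H2AC19, whose reads cannot be split with certainty from those of its copy H2AC18. The sum of these copies rose only 1.29-fold. The 7 include H2BC1 (1, 1 and 0 counts in the Control libraries), H2BC6 (9.69, 13.4 and 8.48 counts) and H1-6 (10, 11 and 15 counts). These could pass the filter on low counts only through the Treated libraries. A stricter filter left H2BC1 and H2BC6 untested and 19 members higher. Only H2AC17, H2BC3 and H2BC18 did not pass. H2AC1, H3-4, H3C11, H4C7, H4C11 and H4C13 stayed at or below 0.738 CPM in every library and were not tested. H4C11 has no coding stretch of 31 bases found in no other member, so its value depends in part on how shared reads were split. Since RNA came from whole cultures, fewer cells in S phase and less histone mRNA in each such cell cannot be told apart. CPM are relative to each library, and whether poly(A) RNA was selected is not stated. The amount of histone mRNA in the cells was therefore not measured.

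**Figure D1:**
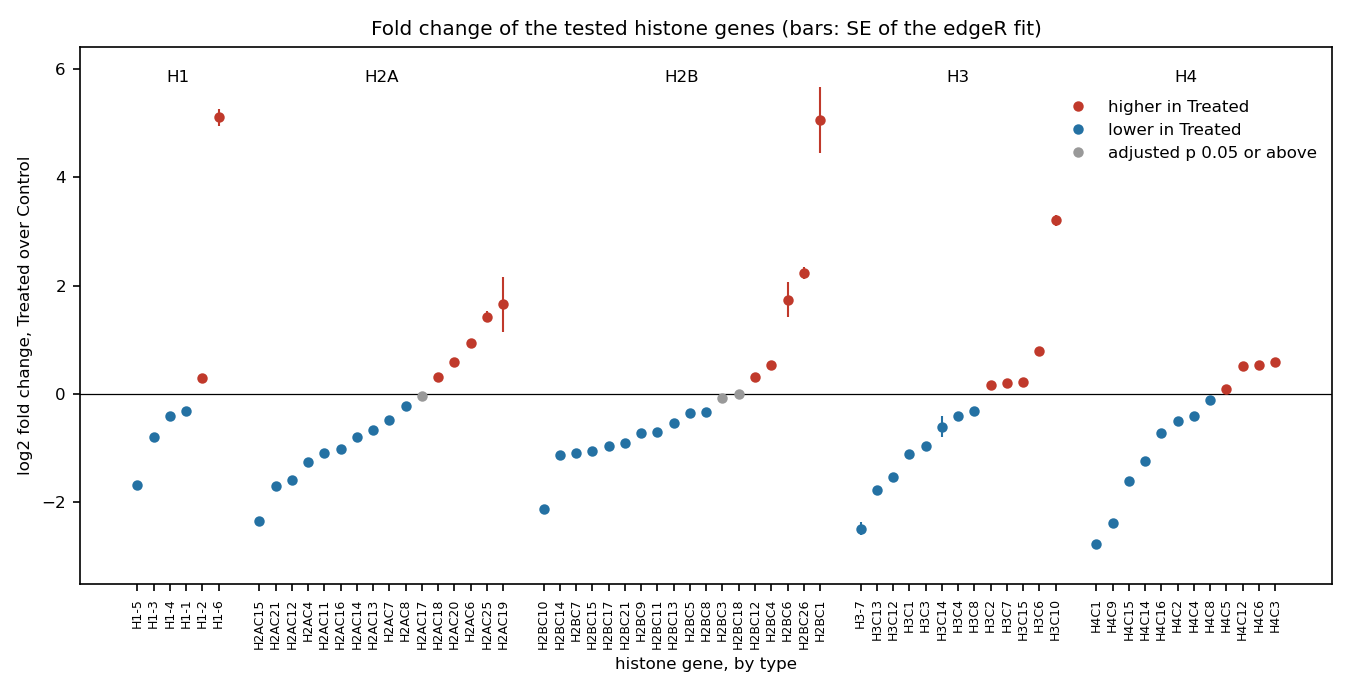
Log2 fold change (Treated over Control) of each of the 65 tested histone genes, ordered within H1, H2A, H2B, H3 and H4, with bars for the standard error of the edgeR fit; red points rose, blue points fell and grey points did not pass. Each type spans both directions, from -2.76 for H4C1 to 5.10 for H1-6.

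The types differed in how far their sums moved. The H1 sum was 1071, 1075 and 1100 CPM in Treated and 1487, 1407 and 1457 CPM in Control libraries, a log2 ratio of -0.42. For H3 the log2 ratio of the summed CPM was -0.35, for H2B -0.31 and for H2A -0.13, and in each of these types every Treated library lay below every Control library in CPM. In summed TPM the groups overlapped for H2A (4967 to 5787 TPM in Treated and 5368 to 6067 TPM in Control libraries), for H2B (4211 to 4907 TPM in Treated and 4789 to 5426 TPM in Control libraries) and over all types (17790 to 20167 TPM in Treated and 19299 to 21607 TPM in Control libraries). The H4 sum came to 2180 ± 78.8 CPM in Treated and 2293 ± 60.8 CPM in Control (SD, n = 3 each), and here the groups overlapped. Its log2 ratio of -0.07 changed sign, to 0.0026, when libraries were scaled by their totals alone and, to 0.02, when TPM were summed in place of CPM. A few genes made most of each sum: the 3 most abundant H1 genes held 86.2% of the H1 CPM, and the 3 most abundant genes of the other types 41.5% to 57.1% of theirs. Across all types, genes that rose made 54.2% of the Treated sum and 34.6% of the Control sum.

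**Figure D2:**
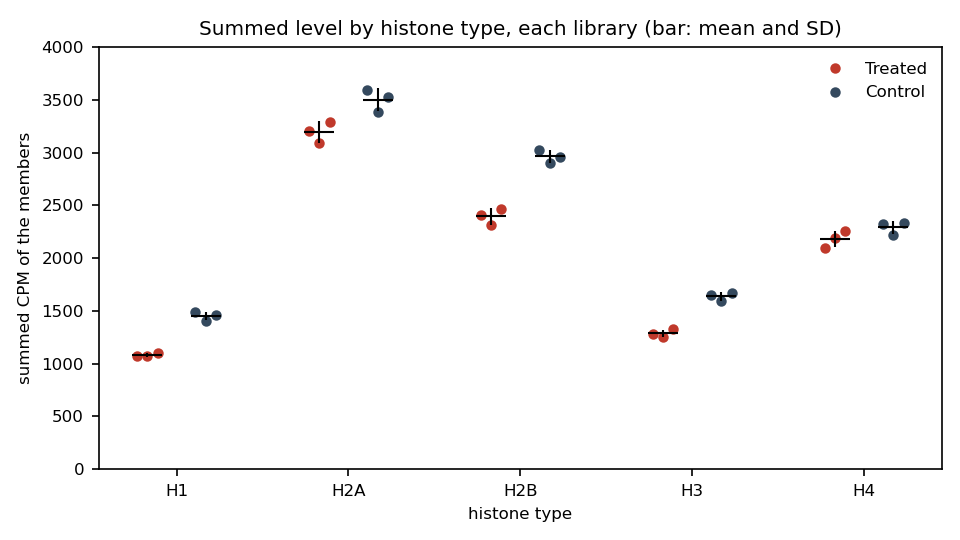
Summed CPM of the members of each histone type in the 3 Treated (red) and 3 Control (dark) libraries, with a bar for the mean and SD; the axis starts at 0. H1, H2A, H2B and H3 sums in CPM were lower in every Treated library than in any Control library, and H4 sums overlapped.

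Of the 6 H1 genes, which encode the linker histones that bind DNA between nucleosomes, 4 fell and 2 rose. Beside this and the counts of the other types, 34.9% of all genes tested rose and 34.5% fell. H1-5, on chromosome 6 at 27866849 to 27867529 (minus strand), measured 71.6, 65.3 and 69.6 CPM in Treated and 219.7, 215 and 227 CPM in Control libraries. The fall of H1-5 was the deepest of the type, with a log2 fold change of -1.68 ± 0.037 (SE, adjusted p = 6.59e-17, edgeR) and no overlap between groups. H1-3 fell too, at 204.5 ± 0.771 CPM in Treated and 357 ± 12.9 CPM in Control (SD, n = 3 each). The most abundant gene, H1-4, averaged 414 CPM in Treated and 546 CPM in Control (log2 fold change -0.40). H1-2, in contrast, reached 366, 359 and 368 CPM in Treated against 298.9, 291.5 and 303 CPM in Control libraries, a rise of 0.29 on the log2 scale. So the levels of H1-2 and H1-3 stood in opposite order in the 2 groups, also per length: H1-2 had 421 TPM and H1-3 242 TPM in Treated, against 323 TPM and 398 TPM in Control. H1-6, a linker histone known from testis, gave 8.24, 7.79 and 7.63 CPM in Treated and 0.182, 0.217 and 0.284 CPM in Control libraries. That is a log2 fold change of 5.10 ± 0.16 (SE, adjusted p = 5.26e-15, edgeR), the largest of the 65, though from a level that made only a small part of the H1 sum. The Control libraries held 10, 11 and 15 counts of H1-6, which could pass the filter on low counts only through the Treated libraries.

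Among the H2A genes, 10 of 16 tested fell and 5 rose. H2AC15 fell furthest, with 14.4, 14.3 and 15.4 CPM in Treated and 75.4, 73.2 and 74.0 CPM in Control libraries (log2 fold change -2.34 ± 0.041, SE; adjusted p = 5.17e-18, edgeR). H2BC15 overlaps it on the other strand in GENCODE 29, and whether counting used strand is not given. H2AC21 and H2AC12 followed, at 41.1 ± 1.63 and 52.8 ± 2.22 CPM in Treated against 132.9 ± 5.18 and 158.6 ± 3.804 CPM in Control (SD, n = 3 each). The abundant H2AC11 was also lower, with 205 ± 12.9 CPM in Treated and 438 ± 11.1 CPM in Control. The most abundant H2A genes went the other way. H2AC20 had 693, 650 and 681 CPM in Treated and 466, 429 and 455 CPM in Control libraries, a rise of 0.58 on the log2 scale with no overlap. H2AC18, the top H2A gene, and H2AC19 are copies with no coding 31-base word of their own among the members, so their reads cannot be split with certainty. Their sum was 988 ± 29.1 CPM in Treated and 765 ± 23.2 CPM in Control, a ratio of 1.29. H2AC25, a gene of the small chromosome 1q42 cluster listed with only a long transcript, rose to 10.4, 10.2 and 10.0 CPM in Treated, against 3.53, 3.44 and 4.48 CPM in Control libraries. H2AC17 had 213 ± 6.55 CPM in Treated and 220.2 ± 10.7 CPM in Control, an overlap (log2 fold change -0.05, adjusted p = 0.26, edgeR). H2AC6 rose as a gene by 0.94 on the log2 scale, and its forms are taken apart below.

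Of the 18 H2B genes 11 fell and 5 rose. H2BC10 gave 24.1, 24.9 and 25.0 CPM in Treated and 107.7, 106.7 and 108.8 CPM in Control libraries, the deepest fall of the type (log2 fold change -2.13 ± 0.035, SE; adjusted p = 3.01e-18, edgeR). H2BC14 followed with 123 ± 5.66 CPM in Treated and 268 ± 11.8 CPM in Control (SD, n = 3 each). H2BC4 and H2BC12 rose: H2BC4 to 413, 397 and 421 CPM in Treated, against 291, 276 and 279 CPM in Control libraries, and H2BC12 to 381 ± 20.2 CPM in Treated, against 305 ± 7.27 CPM in Control (SD, n = 3 each). Both are among the 3 most abundant H2B genes, and the groups did not overlap in either. The third, H2BC18, did not pass, with 423 ± 14.7 CPM in Treated and 422 ± 15.3 CPM in Control (adjusted p = 0.91, edgeR). H2BC3 had 109.8 ± 6.16 CPM in Treated and 115 ± 2.11 CPM in Control and did not pass either (adjusted p = 0.12, edgeR). H2BC26, the 1q42 neighbour of H2AC25, rose to 9.19, 7.54 and 7.76 CPM in Treated, against 1.73, 1.82 and 1.67 CPM in Control libraries, 4.70-fold higher. The other 2 that rose were at low levels: H2BC6 had 0.663 CPM in Treated and 0.200 CPM in Control, and H2BC1, known from testis, 0.497 CPM in Treated and 0.0126 CPM in Control, where its 3 libraries held 1, 1 and 0 counts. H2BC1 is named for its low counts, after its values were seen.

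Of 13 tested H3 genes 8 fell and 5 rose. H3-7, formerly HIST2H3PS2 and named as a pseudogene in that symbol, fell most, to 3.74, 3.79 and 4.93 CPM in Treated, against 25.4, 21.1 and 23.1 CPM in Control libraries. H3C13 fell by 1.77 on the log2 scale (SE 0.047, adjusted p = 9.51e-14, edgeR). Only 32.0% of the coding 31-base words of H3-7 and 15.7% of those of H3C13 are free of a match in another member, so the split of reads between these copies is uncertain. H3C3, with 92.4% of its words in no other member, measured 141, 145 and 157 CPM in Treated and 289.7, 279 and 290.2 CPM in Control libraries, 1.94-fold lower. H3C10, whose listed transcript runs far past the stem-loop, rose to 14.3, 12.8 and 14.1 CPM in Treated, against 1.68, 1.37 and 1.40 CPM in Control libraries. Its log2 fold change was 3.20 ± 0.10 (SE, adjusted p = 7.74e-15, edgeR). H3C6 also rose, at 10.1 ± 0.800 CPM in Treated and 5.87 ± 0.130 CPM in Control (SD, n = 3 each), and H3C2 more slightly, at 216 ± 5.19 CPM in Treated and 192 ± 4.01 CPM in Control. H3C14 was called lower and H3C15 higher, but neither has a coding 31-base word of its own. Their sum was 477, 473 and 490.4 CPM in Treated and 487, 457 and 478 CPM in Control libraries, which overlap. Each of their 2 calls was lost when single replicates of either group were left out.

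Of 12 tested H4 genes 8 fell and 4 rose, although all encode one protein. H4C1 had 5.74, 5.46 and 4.95 CPM in Treated and 34.6, 36.2 and 39.0 CPM in Control libraries, 6.79-fold lower and the deepest fall of all members (log2 fold change -2.76 ± 0.064, SE; adjusted p = 1.54e-16, edgeR). H4C9 fell 5.23-fold, with 11.2 ± 0.806 CPM in Treated and 58.5 ± 0.196 CPM in Control (SD, n = 3 each). H4C3 rose instead, to 251, 247 and 266 CPM in Treated, against 168, 163 and 175 CPM in Control libraries. H4C6 rose alike, to 214, 207 and 221 CPM in Treated, against 147, 144 and 149 CPM in Control libraries. The most abundant member of the type, H4C12, had 745, 868 and 869 CPM in Treated and 600.5, 557 and 577 CPM in Control libraries, 1.43-fold higher. Its GENCODE 29 model shares all its 31-base words with other members, and with H4C11 added the ratio was the same, 1.43. H4C5 was called higher by 0.09 on the log2 scale, with an overlap between 359 to 373 CPM in Treated and 326 to 364 CPM in Control libraries. That call was lost without Control replicate 1 (adjusted p = 0.091, edgeR) and without Control replicate 2 (adjusted p = 0.11, edgeR). The copies H4C14 and H4C15 summed to 232, 229 and 242 CPM in Treated and 637, 605 and 627 CPM in Control libraries, a ratio of 0.376.

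Transcript tables separate a short form, whose length in the files leaves under 200 bases outside the coding part, from longer or spliced forms. The files list 67 short forms, 1 each for 67 members, and 31 long or spliced forms of 17 members. Short forms held 95.4% to 97.1% of the members' counts. Of 61 short forms tested, 41 fell (67.2%, against 15.2% of all 83015 transcripts tested) and 14 rose (23.0%, against 17.5%). Of 26 long or spliced forms tested, 18 rose (69.2%) and 1 fell, and their median log2 fold change was 2.22, against -0.46 for the short forms and 0.00011 for all transcripts. Among these, 2 risers had under 10 counts in every Control library and could pass the filter on low counts only through the Treated ones. The 950-base form of H2BC11, at 0.165, 0.260 and 0.179 CPM in Control libraries, was near that limit. Tested long or spliced forms with a mean of at least 1 CPM numbered 18, of which 14 rose, 1 fell and 3 did not pass. H4C14 and H4C15 share a short and a 610-base form with identical values in every library, so each of these stands for 1 sequence counted under 2 genes.

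**Figure D3:**
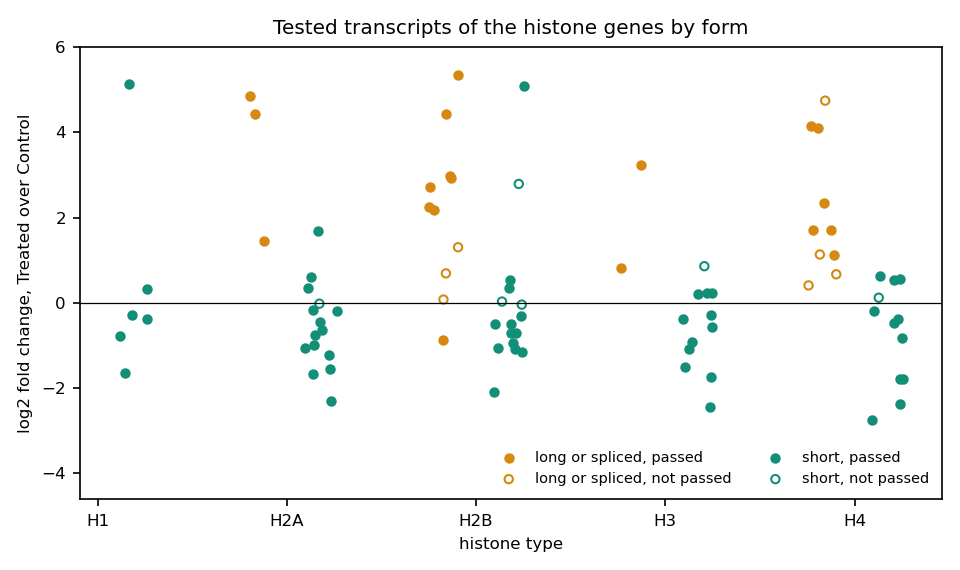
Log2 fold change (Treated over Control) of the tested transcripts of the histone genes by type, long or spliced forms in orange and short forms in green, with filled points past the adjusted p threshold of 0.05 and open points not. In H2A, H3 and H4 every long or spliced form lies above 0, and in H2B all but the H2BC21 form.

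H2AC6 showed the widest change of form. Its short form of 519 bases had 113.7, 112 and 119.9 CPM in Treated and 132, 126 and 131 CPM in Control libraries, slightly lower without overlap (log2 fold change -0.17 ± 0.037, SE; adjusted p = 0.017, edgeR over all transcripts). The spliced form of 1462 bases rose to 85.2, 79.3 and 91.0 CPM in Treated, against 3.47, 2.07 and 3.24 CPM in Control libraries, a log2 fold change of 4.86 ± 0.22 (SE, adjusted p = 4.1e-05, edgeR). The form of 1668 bases, which keeps the stem-loop and is annotated as a target of nonsense-mediated decay, rose to 69.7, 64.7 and 61.4 CPM in Treated, against 3.07, 3.58 and 2.50 CPM in Control libraries. Together the long forms took 57.7%, 56.2% and 56.0% of the gene's counts in Treated and 4.71%, 4.30% and 4.21% in Control libraries. The gene as a whole was higher in Treated while its short form was lower. H2AC6 lies on chromosome 6 at 26124145 to 26139116 (GRCh38, plus strand).

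Its divergent neighbour H2BC4 differed in that both forms rose. The spliced form of 659 bases had 9.40, 9.26 and 9.72 CPM in Treated and 0.576, 0.340 and 0.393 CPM in Control libraries, 21.6-fold higher by the fit. The short form of 460 bases reached 407 ± 13.2 CPM in Treated and 279.9 ± 6.18 CPM in Control (SD, n = 3 each). In H2BC5 the forms parted: the spliced form of 789 bases rose to 17.8, 16.95 and 16.6 CPM in Treated, against 2.09, 1.94 and 2.76 CPM in Control libraries, while the short form fell to 122 ± 0.519 CPM in Treated, against 172 ± 3.24 CPM in Control. H2BC11 parted the same way at a low level, where its 950-base spliced form averaged 1.55 CPM in Treated and 0.201 CPM in Control.

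H4C14 and H4C15 gave the sharpest contrast within H4. Summed over both genes, the short forms were at 173, 173 and 186 CPM in Treated and 617, 595 and 611 CPM in Control libraries, a ratio of 0.291. The long forms were at 61.3, 59.1 and 61.0 CPM in Treated and 11.9, 11.97 and 12.1 CPM in Control libraries, a ratio of 5.05. Within these, the 942-base form of H4C14 averaged 29.9 CPM in Treated and 1.67 CPM in Control. Long forms thus took 24.7% to 26.2% of the pair's counts in Treated and 1.89% to 1.97% in Control libraries. The models of both genes overlap H3C14 and H3C15 on the other strand. H4C8 moved alike at a lower level: its long forms had 8.48, 7.90 and 9.10 CPM in Treated and 0.828, 0.938 and 1.04 CPM in Control libraries, and its short form fell by 0.19 on the log2 scale.

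**Figure D4:**
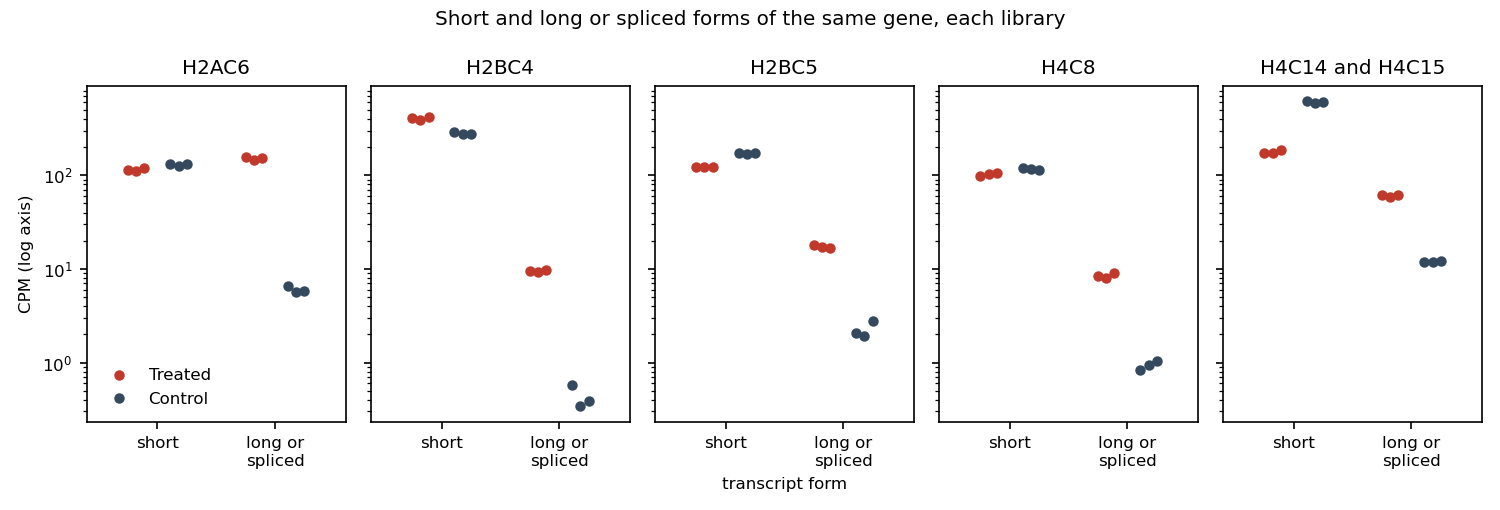
CPM (log axis) of the short and of the summed long or spliced forms in each of the 3 Treated (red) and 3 Control (dark) libraries, for H2AC6, H2BC4, H2BC5, H4C8 and the copies H4C14 and H4C15 together. Long or spliced forms were higher in every Treated library in all panels, and short forms were lower in every Treated library except in H2BC4.

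Not every form classed as long rose. The 2224-base form of H2BC21, the only transcript of that gene matched here, fell to 166, 168 and 179.8 CPM in Treated, against 315, 316 and 309.7 CPM in Control libraries (log2 fold change -0.87 ± 0.035, SE; adjusted p = 2.2e-05, edgeR). It made most of the long-form sum in Control, so that sum over all 31 forms was 470.2 CPM in Treated and 352 CPM in Control, and without H2BC21 298.8 CPM in Treated and 38.5 CPM in Control. No short form is listed for H2BC21, so its value holds all reads of the gene and does not separate a long form. The same is true of H2AC25, H2BC26 and H3C10, which are counted among the long forms that rose. The 715-base form of H2BC15 had 2.26 CPM in Treated and 2.14 CPM in Control and did not pass (adjusted p = 0.83, edgeR). The 1694-base form of H4C15 did not pass at 12.4 CPM in Treated and 7.78 CPM in Control, nor did the 1547-base form of H4C14 at 16.3, 3.93 and 13.7 CPM in Treated and 0, 0 and 1.26 CPM in Control libraries. The 1694-base form ranged from 6.56 to 20.98 CPM among the Treated libraries and from 6.45 to 9.15 CPM among the Control libraries, an overlap. Reads over the coding part shared by forms are divided between them by estimation, so each value of a form is an estimate.

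The 3' ends of the long forms are shown because some carry the poly(A) signal AATAAA. Each line gives the last 30 bases of the GENCODE 29 transcript, 5' to 3' on the coding strand. Where AATAAA is present, its last match in the line is in capitals. Lengths are those of the GENCODE 29 models, and the files list the H2BC21 and H3C10 transcripts at 2224 and 1250 bases.
H2AC6, 1668 bases: tAATAAAaggtaatgcaaagggagaggaaa
H2BC5, 789 bases: taattAATAAAatctgcggagaattgtaaa
H2BC11, 950 bases: gaataaatgAATAAAgtaatattcctctgc
H2BC21, 2194 bases: gttattAATAAAgttaccaattaatttaaa
H3C10, 1237 bases: atgactaAATAAAatctgtataatccccac
H4C8, 1034 bases: aggtgAATAAAatcaggtcactcttctgct
H4C14, 942 bases: ctctgAATAAAgagcagaatgattggcgtc
H2BC4, 659 bases: agacaaaattaaaataactcctagtatctc
AATAAA stood within the last 50 bases of 14 of the 31 long or spliced forms and of 12 of the 67 short ones, read from GENCODE 29 models that have the length in the files for only 1 of the short forms. The H2BC4 line has none in this window, and the 1462-base H2AC6 form has none either. Only AATAAA was searched, so these forms are not shown to lack a poly(A) signal. Of the 23 long forms with at least 16 bases after a stop codon, 15 still held an exact stem-loop, 240 to 1917 bases before their end, and 8 did not. The spliced forms of H2BC4, H2BC5 and H2BC11 and the 1462-base form of H2AC6 were among the 8. Forms with and without the stem-loop were both among those that rose.

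H2A and H2B genes often lie head to head and share the DNA between them. Among the members 11 such pairs had starts 1000 bases or less apart, and both genes were tested in 10. In 5 pairs both genes fell, in 2 (H2AC6 with H2BC4, and H2AC25 with H2BC26) both rose, and in 1 (H2AC17 with H2BC17) one gene did not pass. In the other 2 pairs the calls were opposite. H2AC12 fell to 51.1, 52.0 and 55.3 CPM in Treated, against 161.6, 154 and 159.9 CPM in Control libraries, while H2BC12, 331 bases away, rose. H2AC20 rose and H2BC21, 323 bases away, fell to 168.9 CPM in Treated, against 315 CPM in Control. Over the 10 pairs the log2 fold changes had a Pearson r of 0.54 and a Spearman rho of 0.35, given as a description. Most tested genes of both types fell, 10 of 16 H2A and 11 of 18 H2B genes, against 34.5% of all genes tested, of which 34.9% rose. Whether neighbours shared a direction more often than these shares give was not tested.

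**Figure D5:**
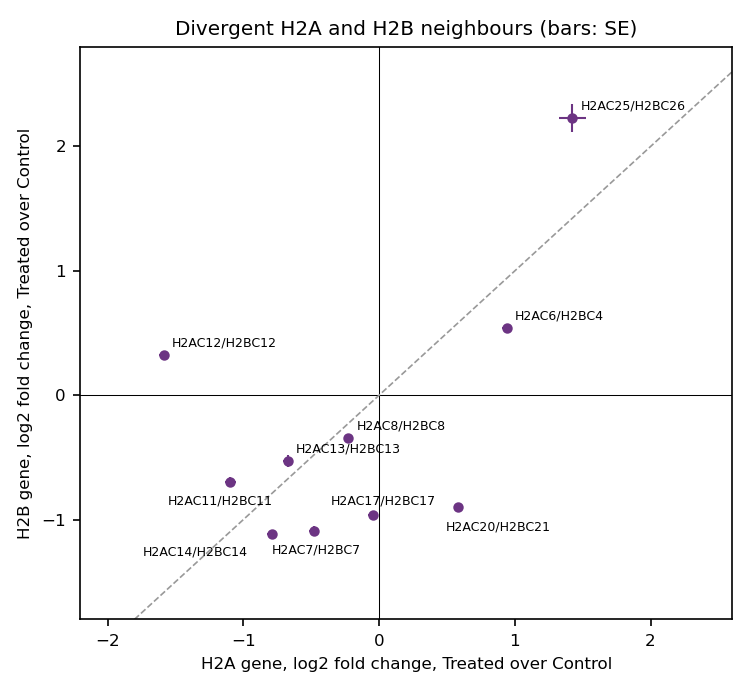
Log2 fold change (Treated over Control) of the H2A gene (horizontal) and of its divergent H2B neighbour (vertical) in the 10 pairs with both genes tested, with standard errors of the edgeR fit and a dashed line of equality. The pairs H2AC12 with H2BC12 and H2AC20 with H2BC21 lie in the quadrants of opposite sign.

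The largest cluster on chromosome 6 (25726132 to 26285638, GRCh38) has 34 members. Of the 32 tested, 12 rose and 19 fell, with a median log2 fold change of -0.32. The second block on chromosome 6 (27125897 to 27893843) has 21 members. Of the 18 tested, 3 rose and 14 fell, with a median of -0.98. On chromosome 1 at 149782689 to 149887916, 4 of 11 rose and 6 fell. In the cluster at 228424845 to 228460470 of chromosome 1, both tested genes, H2AC25 and H2BC26, rose. For comparison, 34.9% of all genes tested rose and 34.5% fell. No test of the difference between clusters was made. H4C16, the single member on chromosome 12 (14767999 to 14771131), fell by 0.72 on the log2 scale.

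Promoters of 66 members were matched by symbol in the RefSeq table (GRCh38.p14, 300 bases around the gene's start), and 3 short motifs known from histone promoters were searched in them. The octamer ATTTGCAT, which POU2F1 binds, was found on either strand in 26 of the 66 (39.4%), against 1.77% of all 35116 promoters in the table. By type it was in 14 of 18 H2B, 11 of 16 H2A, 1 of 13 H3 and no H1 or H4 promoters. The H3 match is H3C4, whose window here (26199244 to 26199543) is the same as that of H2AC7. That window thus enters these counts under 2 genes, and it lies outside the H3C4 gene at 26196840 to 26197250. CCAAT was in 84.8% of the member promoters (34.6% of all) and TATAAA in 66.7% (11.5% of all), both strands counted. Matches of different motifs may overlap by a few bases. Divergent neighbours share much of these windows, so they are not separate cases. Of the promoters with the octamer, 6 belonged to the 20 matched members that rose, 16 to the 38 that fell, 3 to the 3 that did not pass and 1 to the 5 untested. TATAAA was in 14 of the 20 that rose and 23 of the 38 that fell. The promoter of the H2B gene that fell most is set beside those of 2 H2B genes that rose, with matches of the 3 motifs on either strand in capitals.
H2BC10 promoter, chr6:26272681-26272980, plus strand: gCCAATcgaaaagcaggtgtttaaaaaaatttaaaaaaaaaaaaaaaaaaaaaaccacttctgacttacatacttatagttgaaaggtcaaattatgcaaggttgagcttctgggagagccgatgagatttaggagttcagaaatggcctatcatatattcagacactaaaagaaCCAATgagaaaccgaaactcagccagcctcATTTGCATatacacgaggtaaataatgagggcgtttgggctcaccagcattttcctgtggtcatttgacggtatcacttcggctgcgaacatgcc
H2BC4 promoter, chr6:26123877-26124176, minus strand: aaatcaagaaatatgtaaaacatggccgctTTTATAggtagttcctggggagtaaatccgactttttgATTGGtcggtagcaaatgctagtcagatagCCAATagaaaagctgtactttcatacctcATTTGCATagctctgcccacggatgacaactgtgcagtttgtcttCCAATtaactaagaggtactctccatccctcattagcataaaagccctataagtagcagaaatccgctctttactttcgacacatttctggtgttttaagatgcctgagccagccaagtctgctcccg
H2BC12 promoter, chr6:27146809-27147108, minus strand: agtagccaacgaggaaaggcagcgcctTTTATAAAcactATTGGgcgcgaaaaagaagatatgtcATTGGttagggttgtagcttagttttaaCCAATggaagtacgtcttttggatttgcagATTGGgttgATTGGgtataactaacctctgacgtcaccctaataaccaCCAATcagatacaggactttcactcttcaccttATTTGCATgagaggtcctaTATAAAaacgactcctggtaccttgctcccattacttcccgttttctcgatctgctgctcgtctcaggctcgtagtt
All 3 hold the octamer and CCAAT, and only the H2BC10 window lacks TATAAA on either strand. In the H2BC4 window the only TATAAA match is on the opposite strand, near the 5' end. The overlapping window of its divergent neighbour H2AC6 holds that same site, so it is not a site of H2BC4 alone. POU2F1 itself had 101.5 ± 1.81 CPM in Treated and 98.4 ± 1.63 CPM in Control (SD, n = 3 each) and did not pass (adjusted p = 0.22, edgeR).

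Genes that act on histone mRNA were taken from lists by known role. Over all genes tested, 34.9% rose and 34.5% fell, the shares to set beside the counts of each list. Of 30 tested genes for transcription and 3' end processing, 12 rose, 13 fell and 5 did not pass (median log2 fold change -0.05). SLBP, the stem-loop binding protein, fell to 46.6, 46.6 and 43.6 CPM in Treated, against 98.97, 90.3 and 93.5 CPM in Control libraries, 2.07-fold lower without overlap (adjusted p = 1.57e-13, edgeR). NPAT and CASP8AP2, which work where histone genes are transcribed, fell by 0.37 and 0.69 on the log2 scale. Cyclin E acts with CDK2 on NPAT. CCNE1 fell by 1.66 on the log2 scale, and CCNE2 was at 3.16, 3.598 and 3.09 CPM in Treated and 38.0, 35.2 and 36.2 CPM in Control libraries. CDK2 itself rose, to 181.0, 181.1 and 174.7 CPM in Treated, against 100.9, 96.5 and 99.1 CPM in Control libraries, 1.81-fold higher (adjusted p = 5.2e-14, edgeR). LSM10 and LSM11, proteins of the U7 particle, rose by 0.56 and 0.18, and ZNF473, a zinc finger protein of the same particle, rose to 80.8, 84.4 and 83.6 CPM in Treated, against 32.8, 31.3 and 33.0 CPM in Control libraries. CSTF1 and NCBP2, of the polyadenylation and cap-binding machinery, rose 2.09-fold and 2.07-fold, and SNRPB, a shared core protein of small nuclear ribonucleoproteins, fell 1.91-fold.

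Of the 21 genes for histone mRNA decay 8 rose, 9 fell and 4 did not pass. TUT7, which adds uridines to RNA ends, rose to 128 ± 0.948 CPM in Treated, against 48.5 ± 0.883 CPM in Control (SD, n = 3 each). ERI1, the exonuclease that trims the stem-loop, rose by 0.26 on the log2 scale, and LSM1 and DCP1A by 0.87 and 0.60. LSM6, LSM4 and XRN2 fell by 1.82, 1.08 and 0.85.

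Replication-independent histones as a rule carry poly(A) tails and are made through the cycle. The forms of their mRNAs, H2AX included, were not examined here. H1-10 rose 3.26-fold and H3-3B 1.44-fold, while MACROH2A1, H2AZ1, H2AZ2 and H3-3A fell by 1.08, 0.63, 0.55 and 0.28 on the log2 scale, and H2AX did not pass under the TMM scaling used but did with library totals alone (log2 fold change 0.12) and without some single replicates (272.7 ± 3.08 CPM in Treated and 263.8 ± 11.8 CPM in Control, adjusted p = 0.20, edgeR). In this list 7 of 15 tested genes rose, 6 fell and 2 did not pass. Of 28 chaperone and deposition genes, 21 fell, 5 rose and 2 did not pass, with a median of -0.67. NAP1L1, ASF1B and ANP32E fell 3.24-fold, 5.25-fold and 3.67-fold, and SPTY2D1, UBN1 and VPS72 rose 2.51-fold, 1.97-fold and 1.44-fold.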

How the data were processed

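RNA of 6 A375 cultures was sequenced, and each deposited table gives, per the file headers, the length, effective length, estimated counts and TPM (length-normalized abundance) of every transcript. Tools listed by the submitters' processing notes are DESeq2 1.30.0 and kallisto 0.45.0; what each was used for is not said there. The estimated counts and TPM were used as deposited; the transcript release, strand setting and library type are not given in the sources used here. Transcripts were matched to GENCODE 29 by identifier (203436 of 244939; the unmatched held 4.86% to 5.13% of counts). Estimated counts were summed per gene, rounded, filtered (filterByExpr) and tested with edgeR 4.0.16 (R 4.3.3), by the quasi-likelihood test (TMM factors, Benjamini-Hochberg over all 22580 genes or, separately, all 83015 transcripts; threshold 0.05). CPM are TMM-scaled. Samples were grouped by their titles' treatment, 3 against 3; nothing beyond the culture number separates replicates, so p-values measure the spread between these cultures. The genes named per histone type were the 3 of highest mean CPM, of those past the threshold with at least 1 CPM the 2 of highest and 2 of lowest fold change, and those that did not pass; per list, up to 3 that rose and 3 that fell by adjusted p, plus others set by name, of which 1 is not reported here. Other names, among them H2AC6, H2AC12, H2BC1, H2BC5, H2BC6, H2BC21, H4C8, the copies and POU2F1, were added after their values were seen. Forms were classed by length beyond the coding part (limit 200 bases), since transcript lengths in the files mostly differ from GENCODE 29 and the planned classes by distance from the stem-loop could not be applied. The members and lists were chosen with earlier results of these data known. Counts from 50760266 to 59954677 per library bound the precision. The procedure was tested on simulated data. Alternatives tried were other scalings, filters, tools, fold minimum, forms and leaving out each replicate; the forms and class limits were chosen after seeing the data.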

Additional observations from a re-analysis of the deposited data

How the results depend on the processing

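Of the 65 tested members 62 passed; the test against a fold change of at least 1.5 called 36, of them 8 higher. Leaving out each replicate gave 59 to 62 members, 19 to 21 higher and 39 to 41 lower, and 16 to 18 long or spliced forms higher. With the class limit at 100 bases beyond coding, an alternative chosen after seeing the data, 46 long or spliced forms changed, 20 of them lower. Scaled by library totals alone, the log2 ratios of the sums were -0.35 for H1, -0.056 for H2A, -0.23 for H2B, -0.27 for H3, 0.0026 for H4 and -0.15 for all types. From summed TPM they were -0.31 for H1, -0.11 for H2A, -0.19 for H2B, -0.29 for H3, 0.024 for H4 and -0.13 for all types. Short forms alone gave -0.25 for H2B. Long or spliced forms alone, also chosen after seeing the data, gave 4.04 for H2A, -0.58 for H2B, 1.74 for H3, 2.35 for H4 and 0.42 for all types. Without single replicates the ratios ranged from -0.44 to -0.38 for H1, -0.15 to -0.08 for H2A, -0.32 to -0.25 for H2B, -0.37 to -0.30 for H3, -0.09 to -0.01 for H4 and -0.24 to -0.18 for all types. The cause of these shifts was not tested, apart from the forms and the fold minimum, which differ by construction. Of 1754 values of single genes or transcripts under alternatives other than the fold minimum, 1678 kept direction and side of the threshold, 61 changed side and 15 turned direction, each of them a value that did not pass in either setting. H2AC17 (log2 fold change -0.05) came to 0.029 with library totals alone, 0.044 and 0.045 by limma on TPM with a pseudocount of 1 and of 0.1, and -0.084 to 0.0096 without single replicates. H2BC3 (-0.07) came to 0.0065 with library totals, 0.018 and 0.018 by limma, and -0.079 to 0.0063 without single replicates. H2BC18 (0.0047) came to -0.031 with upper quartile scaling, -0.0027 with the stricter filter, -0.0096 with a length offset, and -0.012 to 0.052 without single replicates. The 715-base form of H2BC15 (0.079) ranged from -0.13 to 0.21 without single replicates. Besides those lost to the fold minimum, members that lost their call where they were tested were H2AC19, H3C14, H3C15, H4C5, H4C8, H1-1 and H2AC8; H2AC17 gained one under another scaling and without Control replicate 2, and H2BC3 and H2BC18 gained one under another scaling. The stricter filter removed H2BC1 and H2BC6 from the test. No paired analysis was possible because the replicates of Treated and Control share no numbers. Classes by distance from the stem-loop were not run, since transcript lengths in the files mostly differ from GENCODE 29. Members below the filter, at most 0.738 CPM, were not tested in the main fit. Under some alternatives such members could enter the counts of changed members, but they were not followed singly.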

Other observations

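Of the genes whose older symbols carry the cluster names, 19 are annotated as pseudogenes and are not members, and 2 of them lie on chromosome 13, outside the clusters. Of the 19, 10 had enough counts to test, of which 5 rose, 3 fell and 2 did not pass. Beside these counts, 34.9% of all genes tested rose and 34.5% fell. Among those that rose, H2AC9P had at most 0.145 CPM in Control libraries. It could pass the filter on low counts only through the Treated libraries. H2BC20P rose to 21.7 ± 0.794 CPM in Treated, against 6.77 ± 0.369 CPM in Control (SD, n = 3 each), a log2 fold change of 1.68. H3P4 had 5.39 CPM in Treated and 1.64 CPM in Control. H2BP2 went the other way, with 7.98 CPM in Treated and 20.3 CPM in Control. Reads shared with the members were not separated from these values.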
